A study of Drosophila melanogaster with 19 samples.

Results

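Genes whose symbol begins with eIF, the eukaryotic translation initiation factors, were followed in Drosophila S2R+ cells depleted of subunits of dREAM, a chromatin-bound repressor assembly of RB-family, E2F, Myb and Myb-interacting proteins. Membership goes by symbol, with no threshold on a measured value. It gave 29 of the 15021 genes in the expression table, with the FPKM (fragments scaled to transcript length and library size) of their annotated and newly assembled transcripts summed per gene. Of these, 24 reached 1 FPKM in at least 2 libraries and were tested, and 5 did not. The sources used here give many genes by older symbols, among them eIF-4E for eIF4E1, eIF-5A for eEF5, eIF4AIII for CG7483, and eIF3-S10, eIF3-S9, eIF3-S8, eIF-3p66 and eIF-3p40 for eIF3a, eIF3b, eIF3c, eIF3d1 and eIF3h.

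All cells were of the S2R+ line, derived from embryos and grown at 25 °C, and all received double-stranded RNA (dsRNA) on each of 4 days at a final 10 µg/ml. The dsRNA was directed against mip40 (2 libraries), mip120 (2 libraries), mip130 (2 libraries) or E2F2 (1 library), all subunits of dREAM, or against GFP as the control (2 libraries). The groups therefore share the cell line, the medium and the exposure to dsRNA, and every comparison with the control rests on the same 2 GFP libraries. The labels do not say whether the libraries of a group were grown as different cultures. The p-values therefore reflect the spread among these libraries alone, and that spread may be technical.

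Initiation begins with eIF2, which carries the initiator tRNA to the small ribosomal subunit as a complex with GTP and is recharged by its exchange factor eIF2B. eIF1, eIF1A, eIF3 and eIF5 act on that subunit, and eIF4E, eIF4G and eIF4A bring the capped mRNA to it. eIF5B joins the large subunit, eIF6 keeps the subunits apart until then, and eIF5A is known mainly for its work in elongation and termination. Phosphorylation of eIF2-alpha blocks eIF2B, and 4E-BP (Thor in flies) holds eIF4E away from eIF4G. Drosophila also has extra copies of eIF4E and eIF4G, several of them known for expression in testis.

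FPKM hold no counts of reads, so sequencing depth is unknown. They summed to between 618451 and 774009 per library, 7350 to 7608 genes reached 1 FPKM, and Pearson r between replicates was 0.967 to 0.985 over all genes. The targeted transcript was left in its own group at 3.96% of the GFP mean for mip40, 59.6% for mip120, 16.4% for mip130 and 9.45% for E2F2. Of 11 hemocyte markers in the table, 7 to 9 reached 1 FPKM in every library; srp, a GATA factor of blood cells, ranged from 78.7 to 118 FPKM, while Hml and lz stayed below 0.5 FPKM. None of 4 muscle or 3 fat body markers reached 1 FPKM in any library, and of 3 neuronal markers only elav did, at 23.4 to 40.6 FPKM.

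The eIF genes together took 1.30% and 1.29% of the FPKM of annotated genes in mip40 RNAi, 1.42% and 1.41% in mip120 RNAi, 1.33% and 1.38% in mip130 RNAi and 1.22% in E2F2 RNAi, against 1.24% and 1.24% in GFP RNAi. All 6 mip libraries lay above both GFP libraries and the E2F2 library below them. A large part of each sum was eIF-5A. It held 3476 and 3887 of 8437 and 8827 FPKM in mip130 RNAi, against 2727 and 2303 of 7555 and 7530 FPKM in GFP RNAi. Shares without eIF-5A were not computed, so these shares do not show that the other members rose together. Levels spanned a wide range. In GFP cells eIF-5A was highest at a mean of 2515 FPKM, followed by eIF-2beta at 1380, eIF-4a, the helicase of the cap-binding complex, at 681, eIF-4E at 462 and eIF-4B, the helper of that helicase, at 449 FPKM. The 5 eIF2B subunits stood at the low end of the expressed genes, from 51.0 FPKM for eIF2B-delta to 25.9 FPKM for eIF2B-epsilon. In this order of GFP levels, 10 of 28 neighbouring pairs overlapped or were tied at 0, among them eIF2B-gamma, eIF2B-alpha and eIF2B-epsilon with one another in turn.

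**Figure D1:**
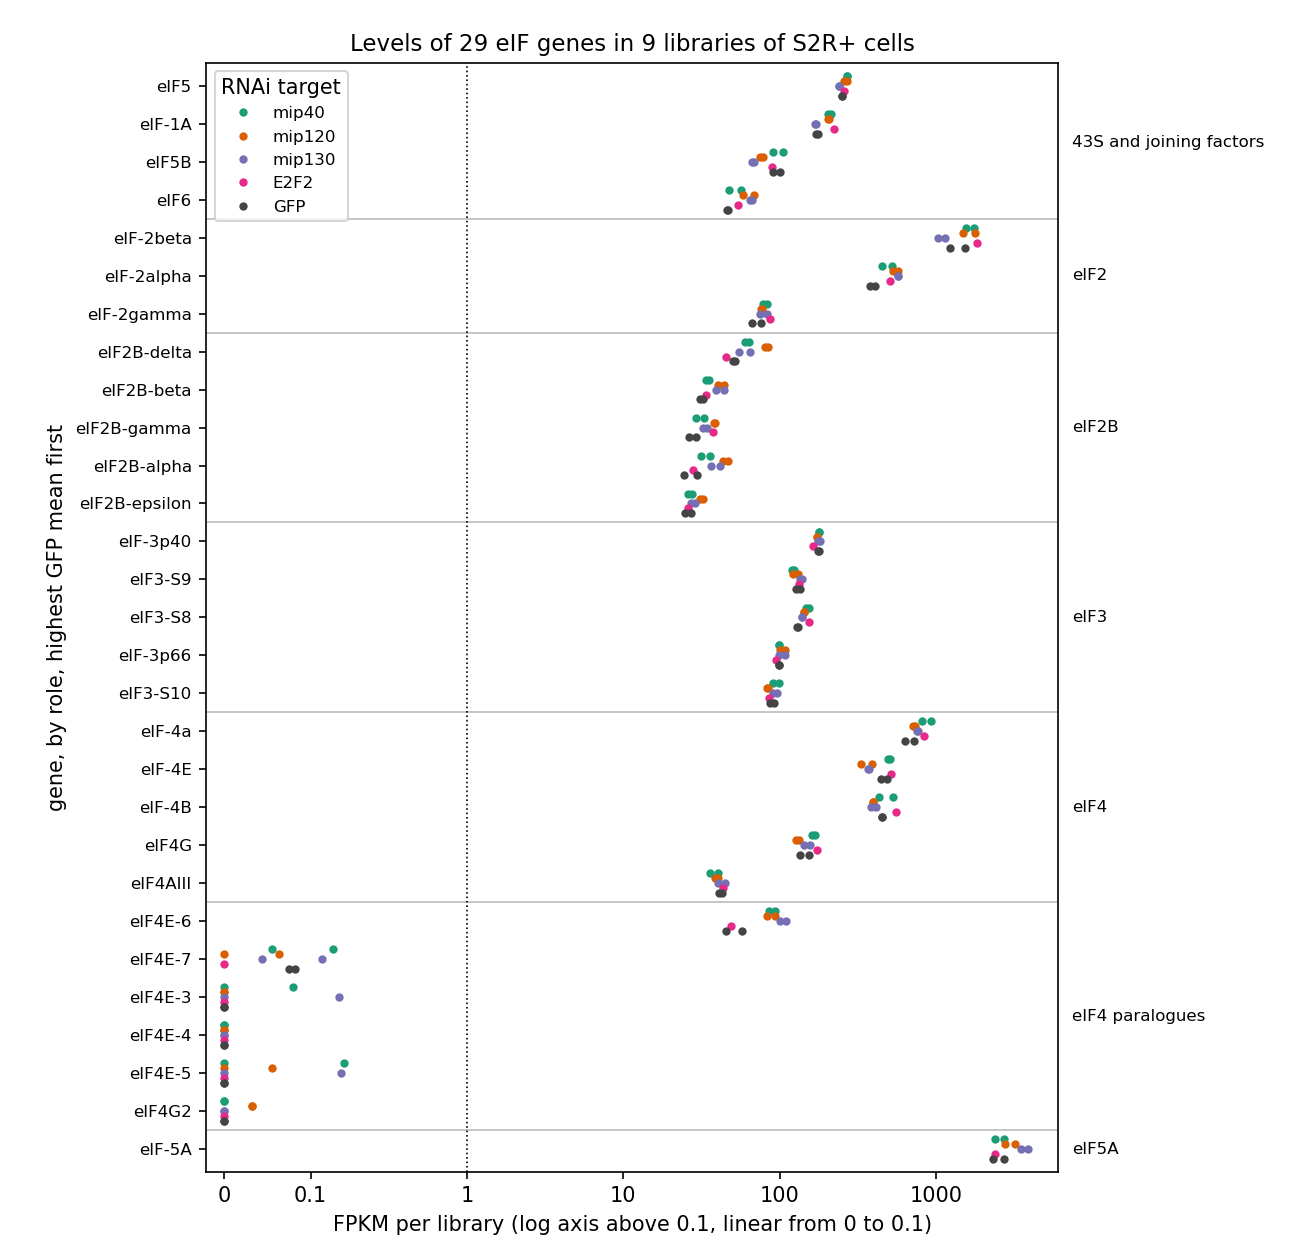
FPKM of the 29 eIF genes (y axis, grouped by role) in each of the 9 libraries (x axis, log scale above 0.1 FPKM, linear below), coloured by RNAi target; the dotted line marks 1 FPKM. Of the eIF4 paralogues, eIF4E-6 lies with the general factors, while the other 5 stay at or below 0.164 FPKM in every library.

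Changes against GFP cells were tested with limma on log2(FPKM + 1) in 1 model over all 9 libraries, with Benjamini-Hochberg adjustment over 7835 genes and a gene called at an adjusted p under 0.05. In mip40 RNAi, 3 of 24 eIF genes were called higher and 0 lower (0 lower also at an unadjusted p under 0.05), where 9.20% of all tested genes were called, 5.69% higher and 3.51% lower. In mip120 RNAi, 9 rose and 2 fell, where 36.5% of all tested genes were called, 17.6% higher and 18.9% lower. For mip130 RNAi the counts were 6 higher and 2 lower, where 36.2% of all genes were called, 19.3% higher and 16.9% lower. The single E2F2 library gave 2 higher and 0 lower (0 lower also unadjusted), where 12.0% of all genes were called, 9.28% higher and 2.72% lower, and it has no replicate check because the model takes its spread from the replicated groups. In mip120 RNAi 37.5% of the eIF genes were thus called higher, against 17.6% of all genes, and 2 of 24 lower, against 18.9%. In mip130 RNAi 25% were called higher, against 19.3% of all genes, and 2 of 24 lower, against 16.9%. Whether these shares differ was not tested.

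Libraries that do not overlap the controls were common. This held for 16, 21, 18 and 19 of the 24 eIF genes in mip40, mip120, mip130 and E2F2 RNAi, and for 53.1%, 72%, 71.7% and 79.8% of all tested genes. The median log2 change of the 24 eIF genes was 0.13 in mip40 RNAi, 0.13 in mip120 RNAi, 0.08 in mip130 RNAi and 0.08 in E2F2 RNAi, beside medians over all tested genes of 0.01, -0.04, 0.01 and 0.08. The counts of called eIF genes moved when single libraries were left out. In each comparison, leaving out some of the libraries also lowered the count over all tested genes. Such losses are therefore not particular to the eIF genes. In mip120 RNAi 4 eIF genes were called without mip120 replicate 2 and 6 without GFP replicate 2; in mip130 RNAi 4 were called without mip130 replicate 2 and 3 without GFP replicate 2. In mip40 RNAi the count was 0 without mip40 replicate 2 and 1 without any other single mip or GFP library, and in E2F2 RNAi it was 0 or 1 without any single mip120, mip130 or GFP library.

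**Figure D2:**
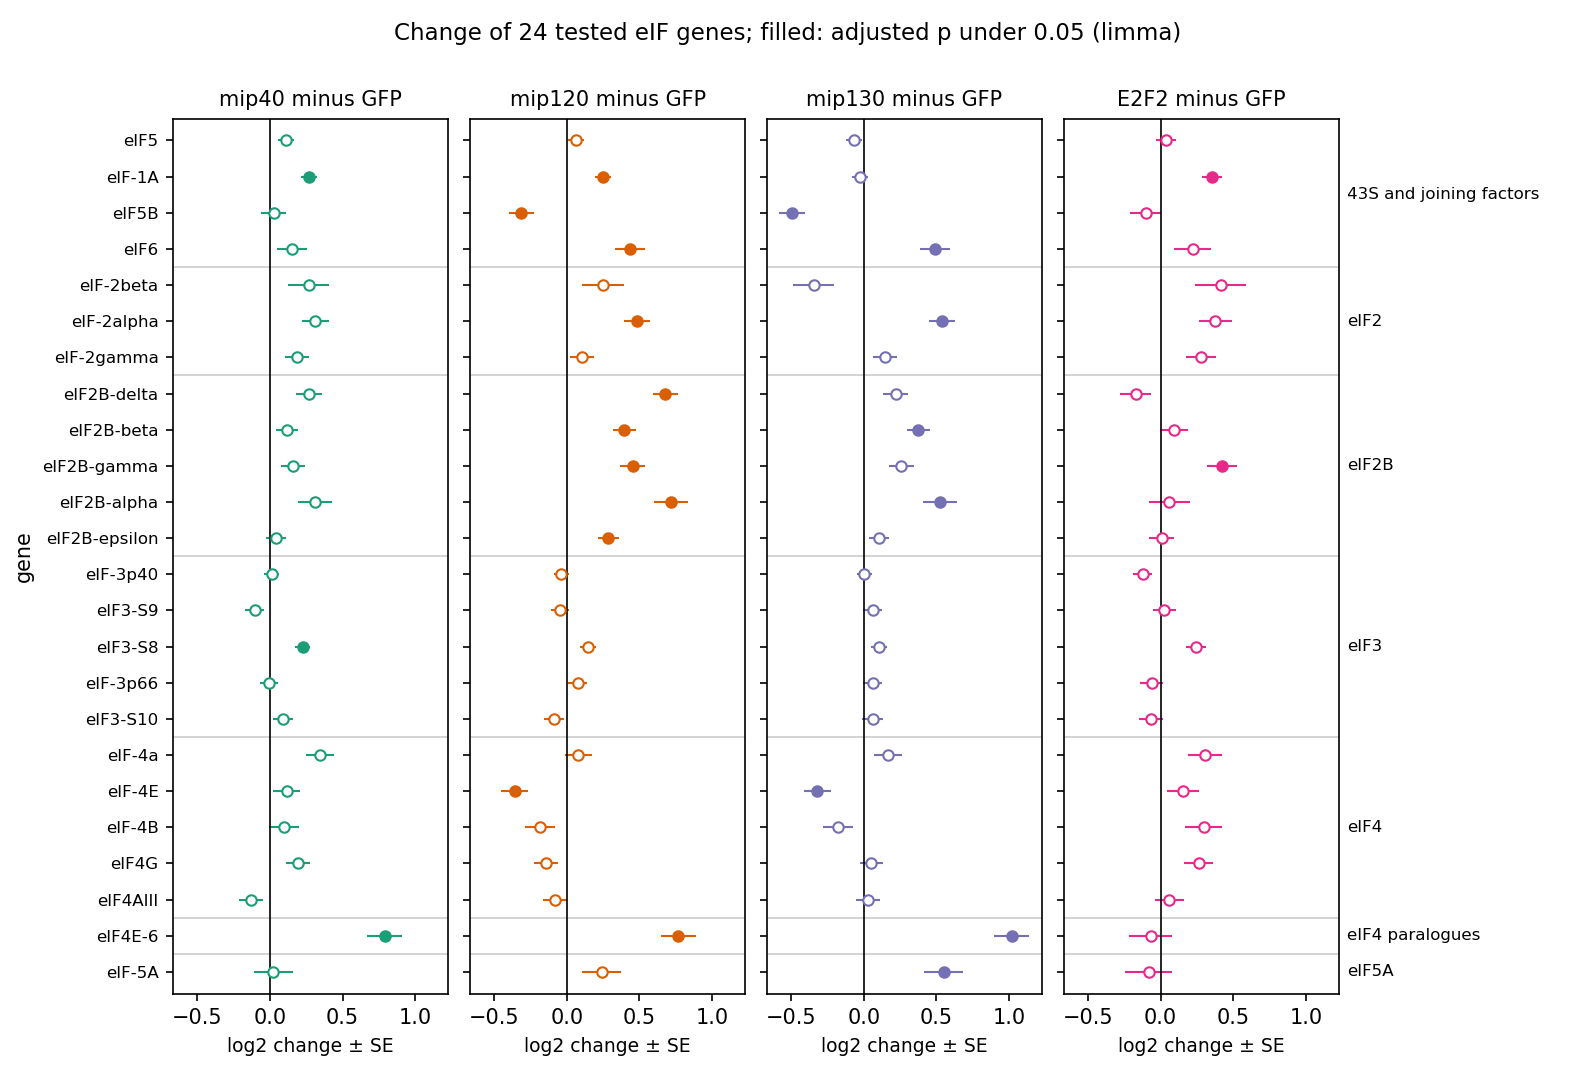
Log2 change ± SE (x axis) of the 24 tested eIF genes (y axis, grouped by role) in mip40, mip120, mip130 and E2F2 RNAi minus GFP RNAi; filled points had an adjusted p under 0.05. All 5 eIF2B genes are filled and right of 0 in mip120 RNAi, and eIF4E-6 is filled in the mip panels but not in E2F2 RNAi. Of the eIF3 genes, eIF3-S8 is filled at 0.22 in mip40 RNAi and lies at 0.24, unfilled, in E2F2 RNAi. The other eIF3 genes lie near 0 in all panels.

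The genes of eIF2B, the GTP exchange factor of eIF2, were all higher in mip120 RNAi. All 5 passed the test there, with log2 changes from 0.28 to 0.72, and 2 of 5 did in mip130 RNAi, 1 of 5 in E2F2 RNAi and 0 of 5 in mip40 RNAi. Of all tested genes, 17.6%, 19.3%, 9.28% and 5.69% were called higher in mip120, mip130, E2F2 and mip40 RNAi. They lie apart in the genome, eIF2B-alpha on 3R from position 25761610, eIF2B-gamma and eIF2B-delta on 2R from 11430175 and 19274016, and eIF2B-beta and eIF2B-epsilon on X from 2598609 and 1816917, as the table gives transcript starts on a build that no source used here names. Their summed level was 241 and 237 FPKM in mip120 RNAi, 191 and 184 in mip40 RNAi, 203 and 200.02 in mip130 RNAi and 170.5 in E2F2 RNAi, against 170.0 and 157 FPKM in GFP RNAi. The mip120 libraries were the highest of all, and the E2F2 library was within 1 FPKM of the higher GFP library.

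eIF2B-alpha, which with the beta and delta subunits forms the regulatory part that senses phosphorylated eIF2, was at 46.4 and 43.1 FPKM in mip120 RNAi, 36.5 and 41.6 in mip130 RNAi, 31.5 and 35.6 in mip40 RNAi and 27.9 in E2F2 RNAi, against 29.5 and 24.3 FPKM in GFP RNAi. Its log2 change was 0.72 ± 0.12 in mip120 RNAi (adjusted p = 0.00391, limma) and 0.53 ± 0.12 in mip130 RNAi (adjusted p = 0.0141, limma). All mip libraries lay above both GFP libraries, and the E2F2 library lay between them. eIF2B-delta, the second regulatory subunit, had 84.3 and 80.0 FPKM in mip120 RNAi, 64.6 and 54.9 in mip130 RNAi, 63.7 and 59.6 in mip40 RNAi and 45.2 in E2F2 RNAi, against 51.6 and 50.4 FPKM in GFP RNAi. It rose by 0.68 ± 0.09 in mip120 RNAi (adjusted p = 0.0016, limma) and was not called in the other groups. Most of its FPKM sat in 2 newly assembled isoforms; over annotated transcripts alone its change in mip120 RNAi was 0.02 (adjusted p = 0.933, limma), so the rise lies in the assembled isoforms.

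eIF2B-beta stood at 40.3 and 43.9 FPKM in mip120 RNAi, 39.1 and 44.0 in mip130 RNAi, 35.3 and 33.8 in mip40 RNAi and 33.9 in E2F2 RNAi, against 32.5 and 30.9 FPKM in GFP RNAi, and rose by 0.40 in mip120 RNAi and 0.38 in mip130 RNAi (adjusted p = 0.0089 and 0.0117, limma). eIF2B-gamma, of the catalytic part, had 37.8 and 38.7 FPKM in mip120 RNAi, 34.4 and 32.3 in mip130 RNAi, 32.9 and 29.3 in mip40 RNAi and 37.4 in E2F2 RNAi, against 29.3 and 26.1 FPKM in GFP RNAi. It was called in mip120 RNAi (0.45, adjusted p = 0.00693, limma) and in the E2F2 library (0.42, adjusted p = 0.0444, limma). The catalytic subunit eIF2B-epsilon had the smallest change, with 32.5 and 31.0 FPKM in mip120 RNAi, 28.6 and 27.3 in mip130 RNAi, 27.7 and 25.7 in mip40 RNAi and 26.0 in E2F2 RNAi, against 27.1 and 24.8 FPKM in GFP RNAi, and was called in mip120 RNAi alone (0.28, adjusted p = 0.021, limma). Its span overlaps that of mip130, the gene targeted in one of the groups, in the Release 6 annotation. In mip130 RNAi mip130 itself had 5.00 and 4.46 FPKM, against 27.7 and 29.8 in GFP RNAi, while eIF2B-epsilon differed by 0.10 (adjusted p = 0.288, limma). In mip120 RNAi, where eIF2B-epsilon was called, mip130 had 42.2 and 42.0 FPKM, with 50.4 and 47.1 in mip40 RNAi and 19.3 in E2F2 RNAi. Ocrl, which starts 97 bp away on the other strand, had 39.8 and 41.2 FPKM in mip120 RNAi, against 29.8 and 31.6 in GFP RNAi. It had 39.6 and 35.9 in mip40 RNAi, 33.9 and 34.6 in mip130 RNAi and 29.7 in E2F2 RNAi. The part of these neighbours was not tested.

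Leaving out single libraries ended some of these calls. In mip120 RNAi eIF2B-beta had an adjusted p of 0.0618 without mip120 replicate 2 and 0.0511 without GFP replicate 2, and eIF2B-epsilon had 0.106 without mip120 replicate 1, 0.0673 without mip120 replicate 2 and 0.103 without GFP replicate 2 (limma). In mip130 RNAi eIF2B-alpha had 0.0804 without mip130 replicate 2 and 0.0725 without GFP replicate 2, and eIF2B-beta had 0.0668 and 0.0676 without the same libraries (limma). The E2F2 call of eIF2B-gamma was lost without any single mip120, mip130 or GFP library, with adjusted p from 0.0542 to 0.136 (limma). eIF2B-alpha and eIF2B-gamma in mip120 RNAi stayed called under all 17 alternatives, with adjusted p of at most 0.0275 and 0.0466 (limma).

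The eIF2B genes were also higher in mip120 than in mip40 RNAi when these groups were compared directly, all 5 passing the test with log2 differences from 0.24 to 0.41, where 25.5% of all tested genes were called, 11.2% higher and 14.3% lower. Their adjusted p lay between 0.0178 and 0.0481 (limma), and each of the 5 was lost without any single mip40 or mip120 library, with adjusted p from 0.0541 to 0.212 (limma). Between mip130 and mip120 RNAi, 1 eIF2B gene was called, where 8.32% of all genes were called, 4.94% higher and 3.38% lower. It was eIF2B-delta, lower in mip130 RNAi by a log2 difference of -0.46 (adjusted p = 0.0278, limma). Over annotated transcripts alone the difference was -0.04 and the call was not made (adjusted p = 0.876, limma). That call was lost without either mip120 library or mip130 replicate 2, with adjusted p of 0.159, 0.0986 and 0.144 (limma).

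**Figure D3:**
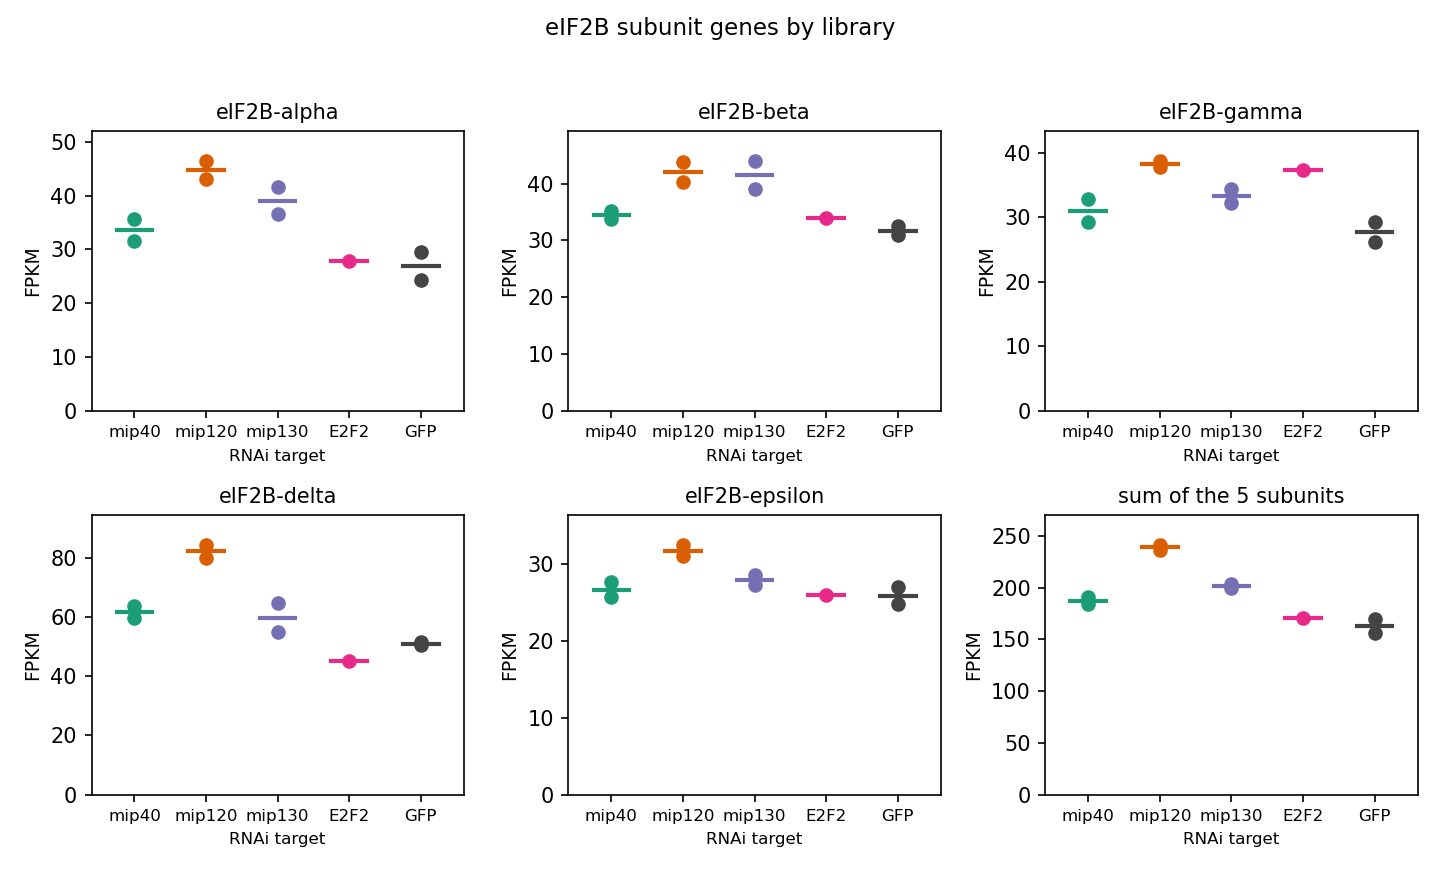
FPKM (y axis, from 0) of the 5 eIF2B genes and their sum in the mip40, mip120, mip130, E2F2 and GFP libraries (x axis); points are libraries and bars group means. The mip120 libraries, at summed levels of 241 and 237 FPKM, lie above the GFP libraries in every panel.

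Of the 3 subunits of eIF2, the substrate of eIF2B, 1 was called. eIF-2alpha, whose phosphorylation turns eIF2 into an inhibitor of eIF2B, had 566 and 574 FPKM in mip130 RNAi, 531 and 567 in mip120 RNAi, 526 and 451 in mip40 RNAi and 509 in E2F2 RNAi, against 406 and 379 FPKM in GFP RNAi. Every RNAi library of a dREAM subunit lay above both GFP libraries. The log2 change was 0.54 ± 0.09 in mip130 RNAi (adjusted p = 0.00557, limma) and 0.48 ± 0.09 in mip120 RNAi (adjusted p = 0.00745, limma), and the mip120 call was lost without mip120 replicate 2 (adjusted p = 0.0518, limma). In mip40 and E2F2 RNAi the differences of 0.31 and 0.38 did not pass (adjusted p = 0.0842 and 0.0755, limma).

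eIF-2beta, which contacts eIF5 and eIF2B, did not pass against GFP in any group, and its direction varied. It stood at 1137 and 1024 FPKM in mip130 RNAi, 1776 and 1495 in mip120 RNAi, 1746 and 1558 in mip40 RNAi and 1826 in E2F2 RNAi, against 1226 and 1533 FPKM in GFP RNAi, where the 2 control libraries themselves lay far apart. It was lower in mip130 than in mip40 RNAi by a log2 difference of -0.61 (adjusted p = 0.0263, limma), where 25.0% of all genes were called between these groups, 12.3% higher and 12.7% lower, and this call was lost without either mip40 or either mip130 library, with adjusted p from 0.0553 to 0.14 (limma). eIF-2gamma, the GTP-binding subunit, ranged from 66.1 to 86.1 FPKM and was called nowhere. Its Release 6 span overlaps Su(var)3-9, a histone methyltransferase gene at 6.25 to 7.54 FPKM here, so reads of shared exons could have been given to either gene.

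The factors that act around scanning and subunit joining moved in different directions. eIF-1A, which helps the small subunit scan, had 205 and 213 FPKM in mip40 RNAi, 204 and 206 in mip120 RNAi, 168 and 171 in mip130 RNAi and 221 in E2F2 RNAi, against 170.4 and 175 FPKM in GFP RNAi. The mip40, mip120 and E2F2 libraries were above both controls, and the mip130 libraries were not. It rose by 0.27 ± 0.06 in mip40 RNAi, 0.25 ± 0.06 in mip120 RNAi and 0.35 ± 0.07 in the E2F2 library (adjusted p = 0.0309, 0.0142 and 0.0232, limma). The mip40 call was lost without any single mip or GFP library (adjusted p from 0.063 to 0.129, limma), the mip120 call without either mip120 library or GFP replicate 1 (0.0602, 0.0749 and 0.0622), and the E2F2 call without either mip120 or either GFP library (0.0504 to 0.07). eIF-1A was lower in mip130 than in mip40 and mip120 RNAi, by log2 differences of -0.30 and -0.27 (adjusted p = 0.0149 and 0.0326, limma). The first was lost without mip40 replicate 1 or either mip130 library (0.0512 to 0.0816) and the second without any single mip120 or mip130 library (0.118 to 0.172).

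eIF5B, the GTPase of subunit joining, was lower in 2 groups, at 66.5 and 68.4 FPKM in mip130 RNAi and 77.9 and 75.1 in mip120 RNAi, with 104 and 90.3 in mip40 RNAi and 88.7 in E2F2 RNAi, against 90.3 and 101 FPKM in GFP RNAi. Neither the mip130 nor the mip120 libraries overlapped the controls. It fell by 0.49 on the log2 scale in mip130 RNAi (adjusted p = 0.00662, limma) and kept this call under all 17 alternatives. In mip120 RNAi it fell by 0.31 (adjusted p = 0.0302, limma), a call lost without either mip120 library, either mip130 library or GFP replicate 2 (adjusted p from 0.0508 to 0.143, limma).

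eIF6, the anti-association factor of the large subunit, showed the opposite direction. It had 64.3 and 66.9 FPKM in mip130 RNAi, 58.2 and 68.3 in mip120 RNAi, 47.3 and 56.4 in mip40 RNAi and 54.2 in E2F2 RNAi, against 46.0 and 46.8 FPKM in GFP RNAi, so that every library of a dREAM subunit lay above the controls. It rose by 0.49 ± 0.11 in mip130 RNAi and 0.43 ± 0.11 in mip120 RNAi (adjusted p = 0.0129 and 0.0186, limma). The mip130 call was lost without mip130 replicate 2 (0.0696) or GFP replicate 2 (0.0591), and the mip120 call without mip120 replicate 2 (0.105) or either GFP library (0.0714 and 0.0704). eIF5, the GTPase-activating protein of eIF2, stayed between 239 and 271 FPKM and was called in no comparison with GFP.

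The 5 subunit genes of eIF3 that carry the eIF name, a scaffold on the small subunit, changed little. Their summed level was 652 and 638 FPKM in mip40 RNAi, 621 and 640 in mip120 RNAi, 644 and 656 in mip130 RNAi and 629 in E2F2 RNAi, against 633 and 618 FPKM in GFP RNAi. eIF3-S8, the c subunit, was the only one called, in mip40 RNAi. It had 155 and 148 FPKM there, 143.5 and 143 in mip120 RNAi, 139.6 and 139 in mip130 RNAi and 153 in E2F2 RNAi, against 130.02 and 129 FPKM in GFP RNAi, a log2 change of 0.22 ± 0.05 in mip40 RNAi (adjusted p = 0.0491, limma). This call was lost without any single mip or GFP library, with adjusted p from 0.0772 to 0.168 (limma). The other 4, eIF3-S10, eIF3-S9, eIF-3p66 and eIF-3p40, had log2 changes between -0.12 and 0.09 in the 4 comparisons.

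The factors of the cap-binding complex split. eIF-4E, the main cap-binding protein, had 369 and 371 FPKM in mip130 RNAi, 389 and 333 in mip120 RNAi, 495 and 506 in mip40 RNAi and 515 in E2F2 RNAi, against 441 and 483 FPKM in GFP RNAi. The mip120 and mip130 libraries lay below both controls, and the mip40 and E2F2 libraries above them. It fell by 0.36 ± 0.09 on the log2 scale in mip120 RNAi and by 0.32 ± 0.09 in mip130 RNAi (adjusted p = 0.0218 and 0.0339, limma). The first call was lost without mip120 replicate 2 (0.114) or GFP replicate 2 (0.108), and the second without either mip130 library or GFP replicate 2 (0.119, 0.122 and 0.163). Against mip40 RNAi directly, eIF-4E was lower by -0.48 in mip120 RNAi and by -0.43 in mip130 RNAi (adjusted p = 0.0132 and 0.0198, limma). The first was lost without mip40 replicate 1 (0.0541) or mip120 replicate 2 (0.0733), and the second without any single mip40 or mip130 library (0.0646 to 0.0985).

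None of the other general eIF4 genes passed against GFP. eIF4G, the scaffold that joins eIF4E to eIF4A and lies on chromosome 4, had 168 and 161 FPKM in mip40 RNAi, 134 and 127 in mip120 RNAi, 144 and 156 in mip130 RNAi and 173 in E2F2 RNAi, against 135 and 153.5 FPKM in GFP RNAi. It was lower in mip120 than in mip40 RNAi (-0.34, adjusted p = 0.0268, limma). Over annotated transcripts alone that difference was 0.48 with an adjusted p of 0.409 (limma), the opposite direction, and it was not called without either mip40 or either mip120 library (adjusted p from 0.061 to 0.142). eIF-4a ranged from 637 to 921 FPKM, eIF-4B from 383 to 552 FPKM and eIF4AIII, the helicase of the exon junction complex, from 35.8 to 44.8 FPKM.

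eIF-5A, the most abundant member, had 3476 and 3887 FPKM in mip130 RNAi, 2751 and 3189 in mip120 RNAi, 2701 and 2396 in mip40 RNAi and 2365 in E2F2 RNAi, against 2727 and 2303 FPKM in GFP RNAi. The mip130 libraries stood above all others. The log2 change there was 0.55 ± 0.13 (adjusted p = 0.0198, limma), lost without either mip130 library (0.0515 and 0.117) or GFP replicate 2 (0.106), and the difference from mip40 RNAi was 0.53 (adjusted p = 0.0323, limma), lost without any single mip40 or mip130 library (0.0722 to 0.171). RpL12, a ribosomal protein gene close to it, was also highest in mip130 RNAi, at 2461 and 2603 FPKM, against 1874 and 1704 FPKM in GFP RNAi.

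The paralogues of the eIF4 factors stood apart from the general ones, and eIF4E-6 stood apart from the other paralogues. eIF4E-6 had 101 and 109 FPKM in mip130 RNAi, 85.4 and 93.5 in mip40 RNAi, 83.0 and 93.2 in mip120 RNAi and 48.8 in E2F2 RNAi, against 57.5 and 45.6 FPKM in GFP RNAi. All 6 mip libraries lay above both controls, and the E2F2 library lay between the controls. The group mean was 2.04 times the GFP mean in mip130 RNAi, 1.74 times in mip40 RNAi and 1.71 times in mip120 RNAi. The log2 changes were 1.02 ± 0.12 in mip130 RNAi (adjusted p = 0.00156, limma), 0.79 ± 0.12 in mip40 RNAi (adjusted p = 0.0109, limma) and 0.77 ± 0.12 in mip120 RNAi (adjusted p = 0.00359, limma), and -0.07 in the E2F2 library (adjusted p = 0.796, limma). It was the member called in each of the mip comparisons, which share their controls; the mip40 call was lost without mip40 replicate 2 (adjusted p = 0.0588, limma), and the other calls held under all 17 alternatives. As RNA was measured in bulk, more or fewer cells with the transcript and more or less of it per cell cannot be told apart.

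**Figure D4:**
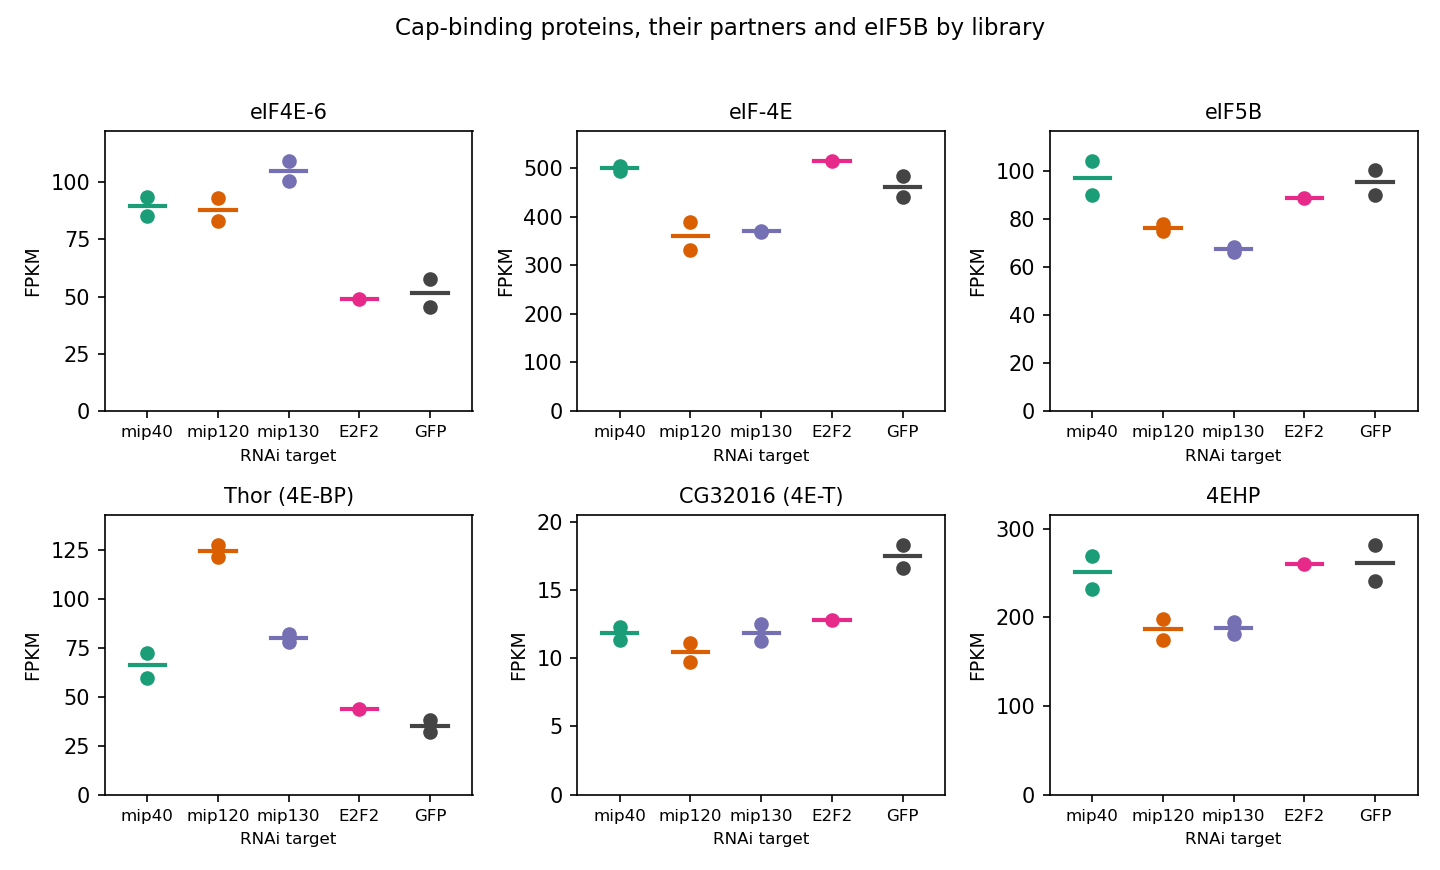
FPKM (y axis, from 0) of eIF4E-6, eIF-4E, eIF5B and of the eIF4E partners and competitor Thor, CG32016 and 4EHP in the mip40, mip120, mip130, E2F2 and GFP libraries (x axis); points are libraries and bars group means. eIF4E-6 lies between 83.0 and 109 FPKM in the 6 mip libraries, above the E2F2 library at 48.8 and the GFP libraries at 57.5 and 45.6 FPKM.

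eIF4E-6 is a short gene, with a Release 6 span of 736 bp, on the reverse strand of 3R, where the table places the start of all 3 of its transcripts at position 24852896. All 3 had higher mean FPKM in the mip groups than in GFP cells. The main one had 62.9 and 68.5 FPKM in mip130 RNAi, 47.2 and 59.2 in mip40 RNAi, 52.2 and 50.5 in mip120 RNAi and 36.6 in E2F2 RNAi, against 41.4 and 34.2 FPKM in GFP RNAi. On the opposite strand, an assembled transcript assigned to Pkc98E, a protein kinase C, starts 446 bp downstream of the eIF4E-6 start, and CG1951 starts 73 bp from it. The Pkc98E gene had 51.2 and 51.3 FPKM in mip130 RNAi, 71.2 and 57.7 in mip40 RNAi, 55.2 and 48.8 in mip120 RNAi and 68.7 in E2F2 RNAi, against 55.7 and 68.3 FPKM in GFP RNAi, and CG1951 stayed between 21.4 and 24.1 FPKM. Neither neighbour followed eIF4E-6, but no source used here names the strand setting, so reads of overlapping transcripts on the 2 strands cannot be told apart.

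The other 5 paralogues were at or near 0 in all groups. eIF4E-7 had 0.0552 and 0.139 FPKM in mip40 RNAi, 0 and 0.0639 in mip120 RNAi, 0.0438 and 0.119 in mip130 RNAi and 0 in E2F2 RNAi, against 0.0815 and 0.0746 FPKM in GFP RNAi. eIF4E-5 was listed above 0 in mip40 replicate 2 at 0.164 FPKM, mip130 replicate 1 at 0.156 and mip120 replicate 2 at 0.0560, and eIF4E-3 in mip130 replicate 1 at 0.153 and mip40 replicate 2 at 0.0801 FPKM. eIF4E-4 was listed at 0 in all 9 libraries, and eIF4G2, the testis paralogue of eIF4G, reached 0.0322 and 0.0330 FPKM in mip120 RNAi and was listed at 0 elsewhere.

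Around eIF4G2 the picture was different. CG34355, whose Release 6 span overlaps it, had 10.95 and 10.6 FPKM in mip40 RNAi, 5.87 and 6.29 in mip120 RNAi, 15.4 and 14.7 in mip130 RNAi and 0.512 in E2F2 RNAi, against 0.180 and 0.155 FPKM in GFP RNAi. Of paralogues of other factors with known testis expression, eIF3g2 was listed at 0 in all 9 libraries, eIF3d2 was listed at 0.0286 FPKM in GFP replicate 1 and at 0 elsewhere, and eIF3f2 had 0.0640 to 0.483 FPKM. The summed level of testis markers was higher in all libraries of a dREAM subunit, E2F2 included, where eIF4E-6 was not. The 13 in the table summed to 65.6 and 63.4 FPKM in mip40 RNAi, 95.9 and 93.6 in mip120 RNAi, 77.6 and 79.8 in mip130 RNAi and 73.3 in E2F2 RNAi, against 44.6 and 45.1 FPKM in GFP RNAi. Of the 13, 6 reached 1 FPKM in each library of a dREAM subunit and 4 in GFP RNAi, but the 6 were not the same in all groups. vis reached 1 FPKM in mip40 RNAi alone, at 1.21 and 1.28 FPKM, and Arp53D did so only in mip120, mip130 and E2F2 RNAi. Of regulators and products of the spermatocyte programme, aly, can, sa, nht and betaTub85D stayed at or below 0.153 FPKM in every library. Other listed genes were present. Of these, topi had 2.61 and 2.72 FPKM in mip40 RNAi, 3.32 and 3.09 in mip120 RNAi, 4.23 and 4.23 in mip130 RNAi and 1.77 in E2F2 RNAi, against 0.970 and 0.717 FPKM in GFP RNAi. Arp53D had 0.256 and 0.120 FPKM in mip40 RNAi, 19.9 and 24.04 in mip120 RNAi, 12.5 and 11.8 in mip130 RNAi and 14.4 in E2F2 RNAi, and was listed at 0 in both GFP libraries. The gene achi reached 11.1 to 11.99 FPKM in mip120 and mip130 RNAi, against 5.37 and 4.05 FPKM in GFP RNAi. It had 5.95 and 7.15 FPKM in mip40 RNAi, and the E2F2 library lay between the controls at 4.90 FPKM. The gene mia had 20.2 to 24.3 FPKM in all libraries of a dREAM subunit, against 15.7 and 13.5 FPKM in GFP RNAi. A large part of the sum was bol, already at 17.8 and 22.1 FPKM in GFP RNAi. It had 31.3 and 26.8 FPKM in mip40 RNAi, 31.1 and 27.2 in mip120 RNAi, 23.04 and 22.98 in mip130 RNAi and 26.8 in E2F2 RNAi. The gene twe showed no shared rise, at 3.91 to 4.94 FPKM in libraries of a dREAM subunit, against 4.51 and 4.28 FPKM in GFP RNAi. dj stayed at or below 0.374 FPKM. The 5 germ cell markers summed to 56.3 and 57.2 FPKM in mip40 RNAi, 52.9 and 54.0 in mip120 RNAi, 76.0 and 81.4 in mip130 RNAi and 58.3 in E2F2 RNAi, against 48.5 and 42.8 FPKM in GFP RNAi. Most of that sum was aub, at 29.6 to 38.2 FPKM in the mip libraries and 47.3 in the E2F2 library, against 46.2 and 40.6 FPKM in GFP RNAi. The others were higher in the mip libraries. There nos had 9.22 to 23.6 FPKM, against 0.334 and 0.357 FPKM in GFP RNAi. Likewise bam had 6.30 to 10.1 FPKM in mip RNAi, against 1.43 and 1.43 FPKM in GFP RNAi. For zpg the levels were 1.91 to 7.31 FPKM in mip RNAi, against 0.421 and 0.343 FPKM in GFP RNAi. In the E2F2 library nos had 2.64, bam 1.33 and zpg 0.552 FPKM. vas had 0.260 to 2.55 FPKM in the mip libraries and 6.48 in the E2F2 library, against 0.114 and 0.0261 FPKM in GFP RNAi. The part of either list in the eIF4E-6 result was not tested.

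Single transcripts were tested in the same way. Of 68 tested eIF transcripts, 0 higher and 0 lower were called in mip40 RNAi (12 and 0 at an unadjusted p under 0.05, limma), 8 and 1 in mip120 RNAi, 5 and 2 in mip130 RNAi and 0 and 1 in the E2F2 library, where 1.20%, 10.9%, 11.2% and 2.00% of all transcripts were called. Of all transcripts, 0.912% were higher and 0.290% lower in mip40 RNAi, 5.99% and 4.94% in mip120 RNAi, 6.32% and 4.85% in mip130 RNAi and 1.07% and 0.937% in the E2F2 library. Of these 17 calls, 0 were kept without GFP replicate 2, 6 without GFP replicate 1, 3 without either mip130 library, 4 without mip120 replicate 1, 3 without mip120 replicate 2 and 11 without either mip40 library. The split of reads between isoforms is an estimate of the authors' tools.

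Isoforms of eIF-4E that share the start at position 9395560 on 3L moved apart in mip130 RNAi. The main isoform had 229 and 213 FPKM in mip130 RNAi, against 314 and 363 FPKM in GFP RNAi, and fell by 0.61 on the log2 scale (adjusted p = 0.0472, limma). A minor one had 42.3 and 48.4 FPKM in mip130 RNAi, against 27.2 and 16.7 FPKM in GFP RNAi, a rise of 1.05 (adjusted p = 0.0385, limma). Both calls were lost without either mip130 library, either mip40 library or GFP replicate 2, the first also without GFP replicate 1 and the second without either mip120 library, with adjusted p of up to 0.206 and 0.172 (limma).

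The minor isoform of eIF-5A had 251 and 284 FPKM in mip120 RNAi, 219 and 209 in mip130 RNAi, 169 and 183 in mip40 RNAi and 88.6 in E2F2 RNAi, against 190.2 and 177 FPKM in GFP RNAi. It rose by 0.54 in mip120 RNAi and fell by 1.04 on the log2 scale in the E2F2 library (adjusted p = 0.0197 and 0.0168, limma), while the gene as a whole was called in neither. Without GFP replicate 2 these became 0.0954 and 0.0721, and without mip120 replicate 2 the first was 0.102; both were lost without GFP replicate 1 as well, at 0.0649 and 0.0682, and the second without either mip130 library, at 0.0527 and 0.0531. For eIF4G, the most abundant assembled isoform of GFP cells had 37.5 and 4.67 FPKM in the 2 mip120 libraries, so that the estimate itself differed widely between replicates, while the gene sums there were 134 and 127 FPKM.

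Other genes of the pathway were taken from lists chosen with earlier results of these data known. For all of them the shares to read counts against are those of all tested genes in the same direction. In mip40 RNAi 5.69% were called higher and 3.51% lower, and in mip120 RNAi 17.6% and 18.9%. In mip130 RNAi these were 19.3% and 16.9%, and in the E2F2 library 9.28% and 2.72%. Either direction gave 9.20% in mip40 RNAi, 36.5% in mip120 RNAi, 36.2% in mip130 RNAi and 12.0% in the E2F2 library. One list held 19 tested genes of initiation without the eIF name, of which Pabp2, a nuclear poly(A)-binding protein, is no initiation factor. Of the other 18, 2 rose in mip40 RNAi, 5 in mip120 RNAi, 5 in mip130 RNAi and 1 in the E2F2 library, and 0 fell in any of them (over all 19, 0, 1, 0 and 0 fell at an unadjusted p under 0.05, limma). Over all 19, the count of 3 in mip40 RNAi became 0 or 1 without any single mip or GFP library. The 5 in mip120 RNAi became 3 without mip120 replicate 2 or either GFP library. The 6 in mip130 RNAi became 4 without mip130 replicate 1 and 2 without mip130 replicate 2 or GFP replicate 2. The 2 in the E2F2 library became 0 or 1 without any single mip120, mip130 or GFP library. eIF1 (CG17737), which guards start codon choice, had 1088 and 1168 FPKM in mip130 RNAi, 964 and 1016 in mip120 RNAi, 734 and 673 in mip40 RNAi and 813 in E2F2 RNAi, against 647 and 574 FPKM in GFP RNAi. It rose by 0.89 in mip130 RNAi and 0.70 in mip120 RNAi (adjusted p = 0.000901 and 0.00179, limma), and both calls held without any single library. eIF3g1 (CG8636), an eIF3 subunit, had 212 and 209 FPKM in mip120 RNAi, 205 and 194 in mip130 RNAi, 165 and 179.6 in mip40 RNAi and 149.6 in E2F2 RNAi, against 141 and 128 FPKM in GFP RNAi. It rose by 0.64, 0.56 and 0.35 in mip120, mip130 and mip40 RNAi (adjusted p = 0.00113, 0.00241 and 0.0354, limma), the last of which was lost without any single mip or GFP library, at up to 0.139. In mip130 RNAi eIF3k (CG10306) and eIF3i (Trip1) also rose, by 0.48 and 0.41 (adjusted p = 0.00923 and 0.00929, limma), both lost without mip130 replicate 2 (0.0576 and 0.0561) or GFP replicate 2 (0.0557 and 0.0575). Pabp2 rose by 0.44 in mip40 RNAi, 0.35 in mip130 RNAi and 0.74 in the E2F2 library (adjusted p = 0.04, 0.032 and 0.014, limma). The mip40 call was lost without mip40 replicate 1 or any single mip120, mip130 or GFP library. The mip130 call was lost without either mip130 or either GFP library, and the E2F2 call without GFP replicate 1.

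Of 26 tested regulators of initiation, Gcn2 passed the filter only through the mip40 and E2F2 libraries, as it was listed at 0 in all others, and it is left out of these counts. Of the other 25, 2 rose and 2 fell in mip40 RNAi, 7 and 6 in mip120 RNAi, 6 and 4 in mip130 RNAi and 0 and 1 in the E2F2 library (5 and 3 there at an unadjusted p under 0.05, limma). In mip120 RNAi these became 5 and 3 without mip120 replicate 1, 4 and 2 without mip120 replicate 2 and 6 and 2 without GFP replicate 2. In mip130 RNAi they became 3 and 2 without mip130 replicate 1, 1 and 2 without mip130 replicate 2, 2 and 7 without GFP replicate 1 and 2 and 2 without GFP replicate 2. In mip40 RNAi 1 rose without mip40 replicate 1 or GFP replicate 1. There 0 fell without either mip40 or either GFP library, and 1 fell without any single mip120 or mip130 library. The regulator that fell in the E2F2 library was raptor. That call was lost without GFP replicate 2, where its log2 change was -0.84. The regulator cup was called higher in mip40 and mip130 RNAi. It had 11.8 and 10.6 FPKM in mip40 RNAi, 7.90 and 8.72 in mip120 RNAi, 8.39 and 9.53 in mip130 RNAi and 6.92 in E2F2 RNAi, against 5.81 and 7.02 FPKM in GFP RNAi. Its mip40 call was lost without mip40 replicate 1 or GFP replicate 1, its mip130 call without mip130 replicate 2 or GFP replicate 1. Thor, the fly 4E-BP that sequesters eIF4E, had 127 and 121 FPKM in mip120 RNAi, 82.04 and 77.9 in mip130 RNAi, 72.4 and 59.6 in mip40 RNAi and 43.7 in E2F2 RNAi, against 38.2 and 32.2 FPKM in GFP RNAi. It rose by 1.79, 1.17 and 0.89 in mip120, mip130 and mip40 RNAi (adjusted p = 0.000104, 0.000734 and 0.0058, limma), and these calls held without any single library. CG32016, the fly 4E-T that binds eIF4E in repressed mRNPs, had 11.2 and 9.74 FPKM in mip120 RNAi, 12.5 and 11.3 in mip130 RNAi, 11.3 and 12.3 in mip40 RNAi and 12.8 in E2F2 RNAi, against 18.3 and 16.7 FPKM in GFP RNAi. It fell by 0.69, 0.52 and 0.53 on the log2 scale in mip120, mip130 and mip40 RNAi (adjusted p = 0.00217, 0.00741 and 0.0206, limma), the mip40 call being lost without either mip40 or either GFP library (0.0551 to 0.105).

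4EHP, a cap-binding competitor of eIF4E, had 199 and 175 FPKM in mip120 RNAi, 195 and 182 in mip130 RNAi, 269 and 232 in mip40 RNAi and 260.5 in E2F2 RNAi, against 241 and 282 FPKM in GFP RNAi. It fell by 0.48 in mip120 RNAi and 0.47 in mip130 RNAi (adjusted p = 0.0173 and 0.0202, limma); the first was lost without mip120 replicate 2 (0.102) or GFP replicate 2 (0.0905), the second without either mip130 library (0.055 and 0.105) or GFP replicate 2 (0.109). Sesn, an inhibitor of the growth kinase TOR, fell by 0.62, 0.47 and 0.30 in mip120, mip130 and mip40 RNAi (adjusted p = 0.000768, 0.00303 and 0.0372, limma), the last lost without any single mip or GFP library. On the side of eIF2, PEK, a kinase of eIF2-alpha, had 44.9 and 44.7 FPKM in mip120 RNAi, 37.0 and 36.2 in mip130 RNAi, 34.1 and 36.1 in mip40 RNAi and 35.6 in E2F2 RNAi, against 30.5 and 30.8 FPKM in GFP RNAi. Gadd34, a subunit of the opposing phosphatase, had 129 and 152 FPKM in mip120 RNAi, 115 and 107 in mip130 RNAi, 84.5 and 82.7 in mip40 RNAi and 80.3 in E2F2 RNAi, against 85.5 and 89.3 FPKM in GFP RNAi. In mip120 RNAi both rose, PEK by 0.53 and Gadd34 by 0.68 (adjusted p = 0.000663 and 0.00172, limma), and held without any single library; in mip130 RNAi they rose by 0.25 and 0.34 (adjusted p = 0.0147 and 0.0238, limma), lost without either mip130 or either GFP library, at up to 0.0713 and 0.113. Gcn2, another kinase of eIF2-alpha, was listed at 11.9 and 11.9 FPKM in mip40 RNAi and 14.8 in E2F2 RNAi but at 0 in both libraries each of mip120, mip130 and GFP RNAi; an exact 0 can be a failed estimate, so neither a fold nor a test is given.

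Elongation and release factors (11 tested) gave 0 calls in mip40 RNAi (3 higher and 0 lower at an unadjusted p under 0.05, limma), 2 higher in mip120 RNAi, 1 higher and 2 lower in mip130 RNAi and 1 higher in the E2F2 library. Ef1alpha100E, an isoform of the factor that delivers aminoacyl-tRNA, had 9.43 and 9.08 FPKM in mip120 RNAi and 7.11 and 7.004 in mip130 RNAi, against 3.60 and 4.66 FPKM in GFP RNAi, and rose by 1.01 and 0.66 (adjusted p = 0.000822 and 0.00516, limma). The mip120 count was 1 without either mip120 library or GFP replicate 2. The mip130 counts were 1 and 0 without mip130 replicate 2. The E2F2 count was 0 without any single mip120, mip130 or GFP library. Cytosolic ribosomal proteins (86 tested) gave 3 higher in mip40 RNAi, 10 in mip120 RNAi, 59 in mip130 RNAi and 6 higher with 1 lower in the E2F2 library. Their median log2 change was 0.18, 0.16, 0.52 and 0.16 in that order, beside 0.13, 0.13, 0.08 and 0.08 for the eIF genes. The count of 59 in mip130 RNAi stood against 19.3% of all genes called higher. It was smaller without either mip130 library or GFP replicate 2. The count of 10 in mip120 RNAi was 20 without mip120 replicate 1, 1 without mip120 replicate 2 or GFP replicate 2 and 5 without either mip130 library. The count of 3 in mip40 RNAi was 0 without GFP replicate 2 and 1 without mip40 replicate 1, and in the E2F2 library the 6 were 0 to 3 without any single mip120, mip130 or GFP library. No test of the difference between lists was made.

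**Figure D5:**
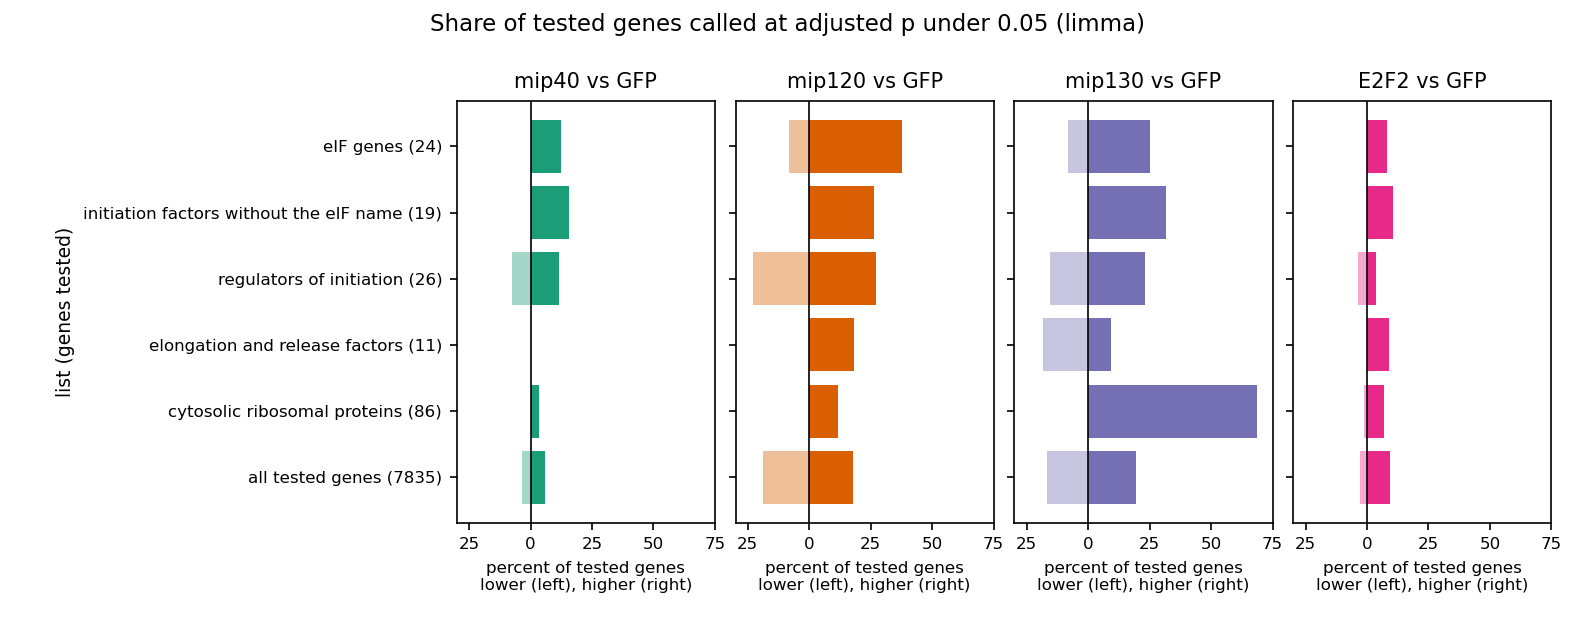
Percent of tested genes (x axis) called higher (right of 0, dark) or lower (left of 0, pale) in mip40, mip120, mip130 and E2F2 RNAi against GFP RNAi, for the eIF genes, 4 other lists (Pabp2 and Gcn2 included) of translation genes and all tested genes (y axis, number tested in brackets). In mip130 RNAi 59 of 86 ribosomal protein genes are called higher, against 6 of 24 eIF genes.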

How the data were processed

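The authors deposited FPKM per transcript for 9 RNA libraries (oligo-dT selected, read pairs of 100 bp, per the labels' protocols). Per the submitters' processing notes, Bowtie 1.1.1, TopHat2 2.0.12, Cufflinks and Cuffnorm were used; no source used here names the build, the annotation, the strand setting or the tools' options. The 9 chromatin samples and 1 naked DNA sample were not analysed here, and 4 deposited columns of group means were not used.

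Transcripts of the annotated, new-isoform and other-overlap classes were summed per gene. limma 3.58.1 in R 4.3.3 was run on log2(FPKM + 1) for genes with at least 1 FPKM in at least 2 libraries, with a pseudocount of 1, a trend of the variance on mean level, and p-values adjusted per comparison by Benjamini-Hochberg, called under 0.05. The model of 5 groups had 4 residual and 2.77 prior degrees of freedom. Fold changes are on that scale, which understates those of low genes. Each log2 change carries the model's SE. FPKM hold no counts, so depth is unknown, no count test was run and the number of libraries limits precision. The test was first checked on simulated data.

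The members and lists were chosen with earlier results of these data known. Named with all libraries' values were the eIF4E and eIF4G families and testis paralogues, the 4 largest rises and falls per comparison among called members, and members called in each of the mip comparisons. Other members are given by range or change. The plan for other translation genes was up to 4 per list and comparison, but fewer are described. Called genes without values here include HBS1, Ef1gamma, pelo, eEF1delta, DENR and MCTS1, and ribosomal protein genes are given as counts only. Regulators called but not described include crc, foxo and CG2950 (mxt), higher in mip120 RNAi, and Tor, Akt1 and gig, lower there. Rheb was called lower in mip130 RNAi. CG34355, Pkc98E, CG1951, Su(var)3-9, RpL12, mip130 and Ocrl were named as neighbours. PEK and the single marker genes were named after their values were seen. Alternatives were another pseudocount, other filters, median-ratio and quantile scaling, annotated transcripts only, only the libraries compared, the replicate block and each library left out. Positions are as in the table; Release 6 (RefSeq) served only for names, overlaps and span lengths. Promoter sequences were not used here.

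The replicate numbers were checked for pairing: deviations of same-numbered libraries correlated between -0.135 and 0.021 over 6 pairs of groups, so no shared deviation was seen. This cannot show whether same-numbered libraries were handled together, which the labels do not say.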

Additional observations from a re-analysis of the deposited data

Results flagged for a closer look

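For 11 members a difference between mip groups passed the test of the difference itself (limma, adjusted p under 0.05 over 7835 genes). Of all tested genes, 25.5% were called between mip120 and mip40 RNAi and 25.0% between mip130 and mip40 RNAi. Between mip130 and mip120 RNAi 8.32% were called. Between mip120 and mip40 RNAi, the log2 difference was 0.41 for eIF2B-alpha, 0.28 for eIF2B-beta, 0.29 for eIF2B-gamma, 0.41 for eIF2B-delta, 0.24 for eIF2B-epsilon, -0.48 for eIF-4E, -0.34 for eIF4G and -0.34 for eIF5B. Between mip130 and mip40 RNAi it was 0.53 for eIF-5A, -0.30 for eIF-1A, -0.61 for eIF-2beta, -0.43 for eIF-4E and -0.52 for eIF5B. Between mip130 and mip120 RNAi it was -0.27 for eIF-1A and -0.46 for eIF2B-delta.

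The 8 calls between mip120 and mip40 RNAi fell to 0 without mip40 replicate 1 or mip120 replicate 2 and to 1 without mip120 replicate 1. The 5 between mip130 and mip40 RNAi fell to 0 without mip40 replicate 1 or either mip130 library. The 2 between mip130 and mip120 RNAi fell to 0 without either mip120 library or mip130 replicate 2. The counts over all tested genes fell as well when such libraries were left out. Target transcript left also differed between these groups, at 59.6% of the GFP mean in mip120 RNAi, 16.4% in mip130 RNAi and 3.96% in mip40 RNAi. Its part in the differences was not tested.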

How the results depend on the processing

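Counts of eIF genes called moved with these settings. Without a filter on FPKM, 3 were called between mip120 and mip40 RNAi and 1 between mip130 and mip120 RNAi, against 8 and 2 as reported; with annotated transcripts alone these were 2 and 1. Median-ratio scaling gave 0 in E2F2 RNAi, and quantile normalization gave 1 in mip40 RNAi and 0 in E2F2 RNAi, against 3 and 2. With only the libraries compared in the model, 1 was called in mip40 RNAi, 0 in E2F2 RNAi, 4 between mip120 and mip40 RNAi and 0 between mip130 and mip120 RNAi. The replicate block gave 1 in mip40 RNAi, 0 in E2F2 RNAi, 4 between mip120 and mip40 RNAi and 1 between mip130 and mip120 RNAi; for the other translation genes, Pabp2 and Gcn2 included, it gave 6 in mip40, 18 in mip120 and 3 in E2F2 RNAi, against 11, 30 and 12, and 1 eIF transcript, against 17. The log2 difference of eIF4G between mip120 and mip40 RNAi was 0.48 with annotated transcripts alone (adjusted p = 0.409, limma), against -0.34; the assembled isoforms hold part of its FPKM. Other causes were not tested.

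With each library left out in turn, eIF genes called ranged from 0 to 3 in mip40 RNAi, 4 to 11 in mip120 RNAi, 3 to 9 in mip130 RNAi, 0 to 3 in E2F2 RNAi, 0 to 8 between mip120 and mip40, 0 to 5 between mip130 and mip40 and 0 to 3 between mip130 and mip120 RNAi. Other translation genes ranged from 3 to 11, 11 to 34, 25 to 78 and 3 to 13 in mip40, mip120, mip130 and E2F2 RNAi, and eIF transcripts from 0 to 13. Counts over all tested genes also fell in each comparison when some of the libraries were left out. Where leaving out a library left a group with 1, that library was assumed to vary like the others. With 2 libraries a group and no read counts, small changes of single members cannot be resolved.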
